A study of Mus musculus with 15 samples.

Results

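A chosen set of 10 genes, not all the Toll-like receptors and co-receptors found in these microglia, was followed with a chaperone among them: Tlr1, Tlr2, Tlr3, Tlr4, Tlr7, Tlr9, Tlr13, Cd14, Ly86 and Unc93b1. They were taken by name from the 32372 genes of the count matrix, and all 10 passed the filter on low counts, which left 14260 genes to test. Microglia were collected from the cortex and hippocampus of 15 male C57BL/6J mice aged 3.5 months by CD45 bead enrichment and profiled by single-cell RNA sequencing of transcript 3′ ends. All mice, controls included, were hTfR knock-in animals (hTfR KI), in which a human transferrin receptor sequence stands in the mouse gene. A single dose (10 mg/kg) was given to each mouse, either ATV:4D9 or ATV:RSV. The first binds TREM2, a lipid-sensing receptor of microglia, and is built on an antibody transport vehicle (ATV), an Fc that takes hold of the human transferrin receptor and so carries the molecule into the brain. The other is a control antibody on the same vehicle. The mice formed 5 groups of 3, which were controls killed 1 day after ATV:RSV and treated mice killed 1, 7, 14 or 28 days after ATV:4D9. The later days had no control of their own, so every comparison with ATV:RSV used the same 3 mice.

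Toll-like receptors bind molecules of microbes and of damaged cells. TLR2, which pairs with TLR1 or TLR6, and TLR4 act at the cell surface on bacterial lipoproteins and lipopolysaccharide, and CD14 hands such ligands to them. TLR3, TLR7, TLR9 and TLR13 read nucleic acids in endosomes and are escorted there by UNC93B1, and most of these receptors signal through MYD88 to NF-kB and interferon regulatory factors. MD-1, the product of Ly86, is held by CD180, a relative of TLR4 that is known to modulate signaling.

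Counts of unique molecular identifiers (UMIs) were available for 102043 cells, 5667 to 7596 a mouse, with 32341960 to 70307384 UMIs a mouse. A cell of an ATV:4D9 day 1 mouse held a median of 8202 to 8996 UMIs, and a cell of the other mice 4694 to 6117. The deposited cell table put 87.3% to 93.5% of the cells of the day 1 ATV:4D9 mice into cluster 2, and 1.12% to 3.23% of the cells of every other mouse. A UMI of the proliferation genes Mki67 or Top2a was found in 19.6% to 27.4% of cells at day 1 of ATV:4D9 and in at most 0.68% elsewhere. Microglial markers (P2ry12, Tmem119 and 7 others, none at 0) summed to 21495 to 22885 per 1000000 UMIs in ATV:RSV mice, 14098 to 15754 at day 1 of ATV:4D9 and 19486 to 22344 later. Monocyte markers, 5 of 5 found, summed to 4.51 to 11.5 per 1000000 UMIs in ATV:RSV mice and 13.9 to 18.0 at day 1. The neutrophil list of 6 reached 141 per 1000000 UMIs in batch 3 at day 7 and at most 9.59 in the other 14 mice. A total of 1283 cell barcodes occurred in more than 1 library and covered 2579 cells.

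Sequence upstream of the gene was at hand from RefSeq for 6 of the 10 members. It is shown for the receptors with the largest rise (Tlr2) and fall (Tlr9) at day 1, for Tlr1, which rose beside its partner Tlr2, and for Ly86. Each stretch runs 5′ to 3′ on the strand of the gene and ends before both the RefSeq and the GENCODE start. Capitals mark matches to a motif, searched on both strands.

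Tlr2, GRCm38.p6 chr3:83841768-83841858, minus strand: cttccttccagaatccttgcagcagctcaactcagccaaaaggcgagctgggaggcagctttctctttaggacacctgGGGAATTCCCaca
Tlr1, GRCm38.p6 chr5:64933564-64933808, minus strand: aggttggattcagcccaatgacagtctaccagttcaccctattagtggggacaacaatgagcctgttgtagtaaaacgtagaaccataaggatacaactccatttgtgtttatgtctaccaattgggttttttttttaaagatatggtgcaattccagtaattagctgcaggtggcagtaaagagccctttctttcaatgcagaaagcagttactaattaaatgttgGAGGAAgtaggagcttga
Tlr9, GRCm38.p6 chr9:106222348-106222597, plus strand: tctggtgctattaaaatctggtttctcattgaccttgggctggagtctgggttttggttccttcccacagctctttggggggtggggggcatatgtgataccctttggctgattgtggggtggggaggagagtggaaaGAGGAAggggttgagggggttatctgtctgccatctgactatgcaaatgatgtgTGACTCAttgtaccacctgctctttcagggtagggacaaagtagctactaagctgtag
Ly86, GRCm38.p6 chr13:37345095-37345207, plus strand: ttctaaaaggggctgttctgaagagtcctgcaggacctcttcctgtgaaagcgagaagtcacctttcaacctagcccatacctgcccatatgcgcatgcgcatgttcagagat

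The Tlr2 stretch held GGGANNNNCC, an NF-kB-type motif, 13 to 4 bases before the GENCODE start, on both strands at the same bases. This motif occurred in 17.6% of 32851 promoters of 250 bases. Tlr1 and Tlr9 held GAGGAA, the core bound by PU.1, the lineage factor of myeloid cells, which occurred in 23.3% of promoters. Tlr9 also held TGANTCA, an AP-1-type motif found in 6.75% of promoters, 58 to 52 bases before its start. Neither GAAANNGAAA, an interferon-response-type motif (2.98% of promoters), nor TATAAA (12.4%) was in the 250 bases before the RefSeq start of these 4 genes. Of the members with sequence that is not shown, Tlr3 also held the NF-kB-type motif before its RefSeq start, though within the GENCODE gene. Tlr13 held GAGGAA. These matches are descriptions of the letters only.

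One day after ATV:4D9 several members had moved in their level after TMM scaling, which is not the plain share of UMIs. Tlr2 rose 4.08-fold, Ly86 1.87-fold, Tlr1 1.55-fold and Cd14 1.51-fold, and Tlr9, Tlr7 and Unc93b1 fell. In limma-voom on the counts summed per mouse, 9 of 10 members passed the threshold (Benjamini-Hochberg adjusted p under 0.05), 6 higher and 3 lower, where scaling by the number of cells called 6 higher and 0 lower and scaling by total UMIs 4 higher and 4 lower. Of all 14260 genes tested, 69.2% were called in this comparison, 34.7% higher and 34.6% lower, and groups did not overlap in 35.7% (higher) and 35.9% (lower), so the count of members called is not far from the background. Tlr2 alone among the members was called with a rise of at least 2-fold, where 12.8% of all genes were. How many genes rose as far as Tlr2 was not counted. The members' median log2 fold change was 0.17, and that of all genes −0.05.

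Tlr2, which senses bacterial lipoproteins, stood at 83.6, 76.9 and 78.0 counts per 1000000 (CPM, after TMM scaling) in the 3 ATV:RSV mice. It stood at 298, 314 and 366 CPM in the 3 day 1 ATV:4D9 mice, which lay far above every control. The log2 fold change was 2.03 ± 0.09 (SE, n = 3 mice a group, limma-voom adjusted p = 1.61e-11), and within the 3 batches it was 1.83, 2.03 and 2.23. Tlr1, a partner of TLR2, was at 16.2, 15.1 and 17.6 CPM in controls and at 25.8, 25.1 and 24.7 CPM at day 1, with no overlap (log2 fold change 0.64 ± 0.07, limma-voom adjusted p = 8.11e-07). Of the read-length words (91 bases) in the last 1000 bases of Tlr1, 18.7% were also found in Tlr6, its neighbor and near copy, so these paralogs may share reads. Tlr4, the lipopolysaccharide receptor, was at 40.1, 29.0 and 31.3 CPM in controls and 30.4, 26.9 and 24.4 CPM at day 1. The groups overlapped, and the log2 difference of −0.29 ± 0.13 missed the threshold (limma-voom adjusted p = 0.0503). With the batch as a block the adjusted p of limma-voom was 0.0057 for Tlr4. It was called in 10 of the 27 alternatives, and scaling by the number of cells turned its sign (0.07).

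Cd14, which hands lipopolysaccharide to TLR4 and also serves TLR2, was at 439, 381 and 479 CPM in controls and at 568, 668 and 733 CPM at day 1. All 3 treated mice exceeded all controls (log2 fold change 0.60 ± 0.09, limma-voom adjusted p = 1.23e-05), with log2 differences of 0.37, 0.81 and 0.61 in the 3 batches. Ly86 was at 1726, 1630 and 1789 CPM in controls and at 3031, 3063 and 3527 CPM at day 1. Its groups were the most cleanly parted after those of Tlr2 by adjusted p (log2 fold change 0.90 ± 0.05, limma-voom adjusted p = 5.01e-10), and it was called in all 27 alternatives at day 1, as was Tlr2.

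**Figure D1:**
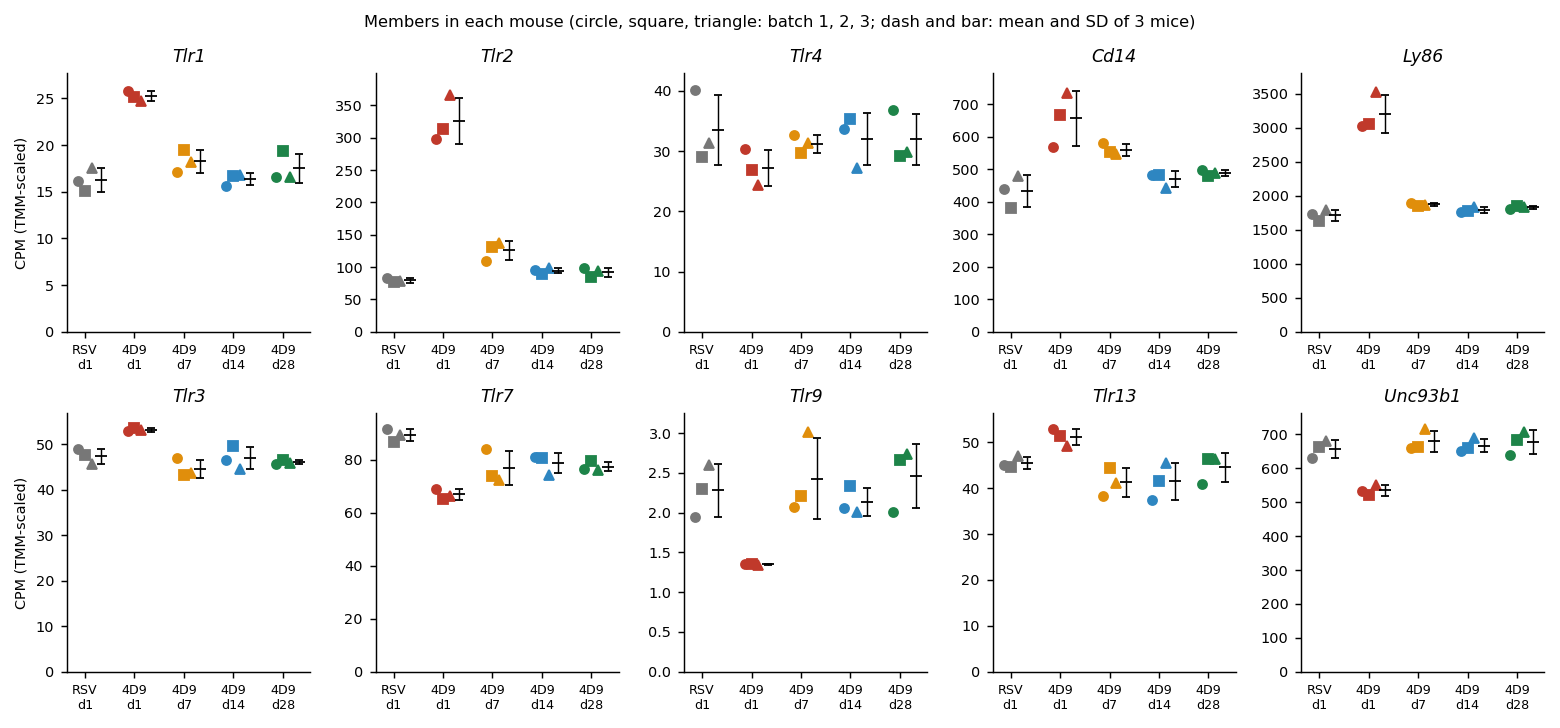
Level of each member in each mouse, in TMM-scaled CPM on axes that start at 0, by group (RSV, ATV:RSV; 4D9, ATV:4D9; d, day). Symbols stand for the batch, and the dash and bar for the mean and SD of 3 mice; Tlr2 lies at 298 to 366 CPM at day 1 of ATV:4D9 and at 137 CPM or less in the other 12 mice.

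Among the endosomal receptors and their chaperone the changes went both ways. Tlr7, a sensor of single-stranded RNA, was at 91.4, 86.8 and 89.3 CPM in controls and 68.9, 65.2 and 66.4 CPM at day 1, lower in each treated mouse (log2 fold change −0.42 ± 0.06, limma-voom adjusted p = 6.47e-06). Unc93b1, the chaperone of the endosomal receptors, was at 630, 662 and 680 CPM in controls and 532, 521 and 552 CPM at day 1, again without overlap (−0.30 ± 0.05, limma-voom adjusted p = 6.66e-05). Both falls are falls in the share of UMIs. Per cell, Tlr7 had 0.581 UMIs in controls and 0.559 at day 1, and Unc93b1 had 4.27 ± 0.20 and 4.47 ± 0.25 (mean and SD, n = 3 mice). Scaled by the number of cells, the log2 difference of Tlr7 was −0.06 (limma-voom adjusted p = 0.635) and that of Unc93b1 turned to 0.064 (limma-voom adjusted p = 0.532), while the median of all genes moved to 0.32. Fewer cells of a type and less RNA per cell cannot be told apart in sums over a mouse.

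Tlr9, a sensor of unmethylated DNA, was sparse, at 63 to 109 UMIs in each of the 6 mice, and its CPM was 1.94, 2.29 and 2.60 in controls and 1.35, 1.36 and 1.35 at day 1. The fall of 0.73 ± 0.18 on the log2 scale was called (limma-voom adjusted p = 0.00186), but not after scaling by the number of cells (−0.37, adjusted p = 0.115). After thinning each cell to 3385 UMIs, 0.824% ± 0.177 of control cells and 0.418% ± 0.036 of day 1 cells held a Tlr9 UMI. The neuronal gene Snap25, which microglia should lack, was found in 1.61% ± 0.08 and 0.984% ± 0.229 of the same cells, so the Tlr9 share lay below that of Snap25 in both groups. It lay above that of other genes foreign to microglia, such as Gad1 of neurons (0.173% and 0.106%) and Aqp4 of astrocytes (0.089% and 0.080%), and above Cldn5 and S100a8 in controls (0.495% and 0.647%) but not at day 1 (0.428% and 0.467%). Neuronal markers as a list, 5 of 5 found in every library, were also lower, with 8.58 to 11.3 per 1000000 UMIs in controls and 4.47 to 6.09 at day 1, as were oligodendrocyte markers (46.3 to 61.3 in controls against 28.3 to 31.0) and endothelial markers (19.2 to 25.5 against 8.82 to 13.04). The part of these transcripts in the Tlr9 result was not tested.

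Tlr3, a sensor of double-stranded RNA, was at 45.6 to 48.8 CPM in controls and 52.8 to 53.5 CPM at day 1 (log2 fold change 0.17 ± 0.05, limma-voom adjusted p = 0.00607). Tlr13, a sensor of bacterial ribosomal RNA, was at 44.7 to 47.0 CPM and 49.3 to 52.8 CPM (0.17 ± 0.07, limma-voom adjusted p = 0.0478). Neither group pair overlapped, but both signs turned with scaling by total UMIs (−0.075 for Tlr3 and −0.073 for Tlr13). Tlr3 shares its locus with the antisense gene Gm45542, and how the counting used strand is not stated, so their reads may not be told apart. The call of Tlr13 was lost when any of 9 of the 15 mice was left out, namely all 3 controls, day 1 replicates 1 and 2, day 7 replicate 3, day 14 replicate 2 and day 28 replicates 2 and 3, with adjusted p from 0.0519 to 0.117. It was also lost with edgeR (adjusted p = 0.055), without cells with a Mki67 or Top2a UMI (limma-voom adjusted p = 0.0835), with scaling by total UMIs and in clusters 0 and 1 alone.

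**Figure D2:**
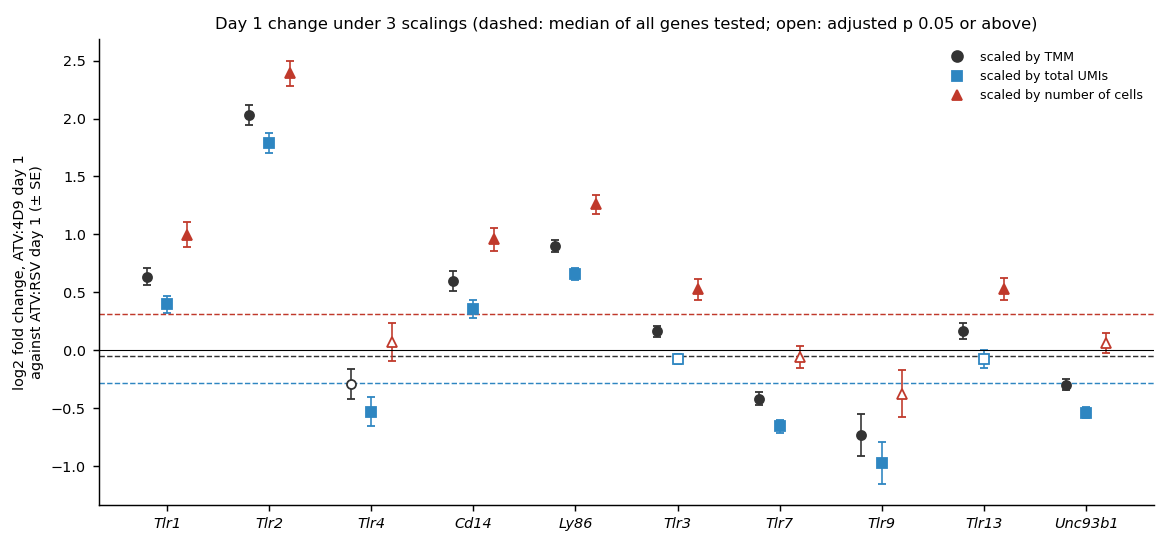
Log2 fold change of each member at day 1 of ATV:4D9 against ATV:RSV, with its SE, under TMM, total UMIs and number of cells as the scale. Dashed lines give the median of all genes tested; Tlr1, Tlr2, Cd14 and Ly86 lie above 0 under all 3, while Tlr3, Tlr4, Tlr13 and Unc93b1 change sign between them.

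Several features of the day 1 cells moved with these values. Without the cells that held a Mki67 or Top2a UMI, the log2 fold change was 2.10 for Tlr2, 0.70 for Tlr1, 0.65 for Cd14, 0.91 for Ly86, −0.38 for Tlr7, −0.23 for Unc93b1 and −0.24 for Tlr4 (not called, limma-voom adjusted p = 0.111). Without the 671 cells that held 3 or more markers of another cell type it was 2.03 for Tlr2, 0.63 for Tlr1, 0.60 for Cd14, 0.90 for Ly86 and −0.30 for Tlr4 (limma-voom adjusted p = 0.0464). In the 3 day 1 ATV:4D9 mice this filter marked 60, 75 and 74 cells by border-associated macrophage markers, and 0, 0 and 1 by monocyte markers. It therefore left the part of monocyte transcripts untested.

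The cells themselves also showed how unevenly the transcripts were spread. After thinning, a Tlr2 UMI was found in 23.1% ± 0.8 of ATV:RSV cells and in 49.5% ± 2.9 of day 1 ATV:4D9 cells (unthinned 35.4% and 70.1%). Snap25, Cldn5 and S100a8, genes of neurons, endothelial cells and neutrophils set beside it, were found in at most 1.81% of thinned cells of any group (mean of 3 mice). Cells with 5 or more Tlr2 UMIs made up 0.04% of thinned control cells and 2.29% ± 0.685 of day 1 cells. For Cd14 the share of thinned cells with a UMI went against the CPM, at 69.4% ± 3.6 in controls and 63.2% ± 3.0 at day 1, and no order is read from it. The mean Cd14 count nevertheless went from 1.54 to 1.85 UMIs a thinned cell, and the 10% of cells with most Cd14 held 36.1% ± 0.6 of its UMIs in controls and 43.7% ± 1.3 at day 1. Ly86 was found in over 99% of thinned cells in every group, with a mean of 6.19 ± 0.32 UMIs in controls and 9.86 ± 0.695 at day 1. The top 10% of cells held 20.8% of its UMIs in both groups. Thus Ly86 was higher in a broad run of cells, while Cd14 at day 1 was drawn more from a minority.

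Detection of members in the same cell was counted for a few pairs. Among thinned control cells, a Tlr2 UMI was found in 23.8% ± 1.3 of cells with a Cd14 UMI and in 21.4% ± 0.5 of the rest. At day 1 of ATV:4D9 these shares were 51.6% ± 3.1 and 45.8% ± 2.1. Tlr1 was found in 7.85% ± 0.77 of cells with a Tlr2 UMI at day 1 and in 6.21% ± 0.24 of those without. A cell held UMIs of 0.92 to 1.01 of the 7 Toll-like receptors in controls, 1.11 to 1.13 at day 1 and 0.92 to 1.00 later. Tlr2 is among the 7, and thinned cells without a Tlr2 UMI went from 76.9% in controls to 50.5% at day 1. The higher count at day 1 is therefore not read as broader detection of the other receptors. These values are descriptions without a test, as the replicate is the mouse.

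The deposited clusters were made from all genes of these cells, so differences between clusters are described without a test. Levels are per 1000000 UMIs of the cells of a cluster in a mouse. Tlr2 was lowest in cluster 1 (65.3 ± 1.6, n = 3 mice), higher in cluster 0 (90.6 ± 4.4) and highest in the few cluster 2 cells (142 ± 10, from 76 to 165 cells a mouse) of ATV:RSV mice. At day 1 of ATV:4D9 it was 111 ± 11, 122 ± 10 and 300.4 ± 24.1 in clusters 1, 0 and 2. Cluster 2 cells of the later days, 74 to 245 a mouse, held Tlr2 at 225 ± 46, 182 ± 38 and 221 ± 34 on days 7, 14 and 28. Ly86 was higher at day 1 than in controls in each cluster, at 2647 ± 57 against 1722 ± 73 in cluster 0, 3254 ± 213 against 2012 ± 71 in cluster 1 and 2866 ± 204 against 1956 ± 11 in cluster 2. Cd14 followed the clusters more than the day, with 499 ± 73, 357 ± 17 and 669 ± 81 in clusters 0, 1 and 2 of controls and 630 ± 68, 277 ± 17 and 593 ± 65 at day 1. Unc93b1 was lower in cluster 2 than in clusters 0 and 1 in every group, at 568 ± 25 against 680 ± 25 and 742 ± 35 in controls. At day 1 it was 471 ± 8 against 606 ± 29 and 693 ± 54. Its mean was thus also lower at day 1 than in controls within each cluster, though mice overlapped in cluster 1. With cells of clusters 0 and 1 only, which left 391 to 906 cells in each day 1 mouse, Tlr2 (log2 fold change 0.46, limma-voom adjusted p = 0.0188) and Ly86 (0.67, limma-voom adjusted p = 6.88e-08) were still called at day 1. Tlr1 (0.16, limma-voom adjusted p = 0.597) and Cd14 (0.05, limma-voom adjusted p = 0.811) were not. These cells were selected by clusters drawn from the same counts, which bears on which calls are kept. The calls therefore describe the selected cells only.

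**Figure D3:**
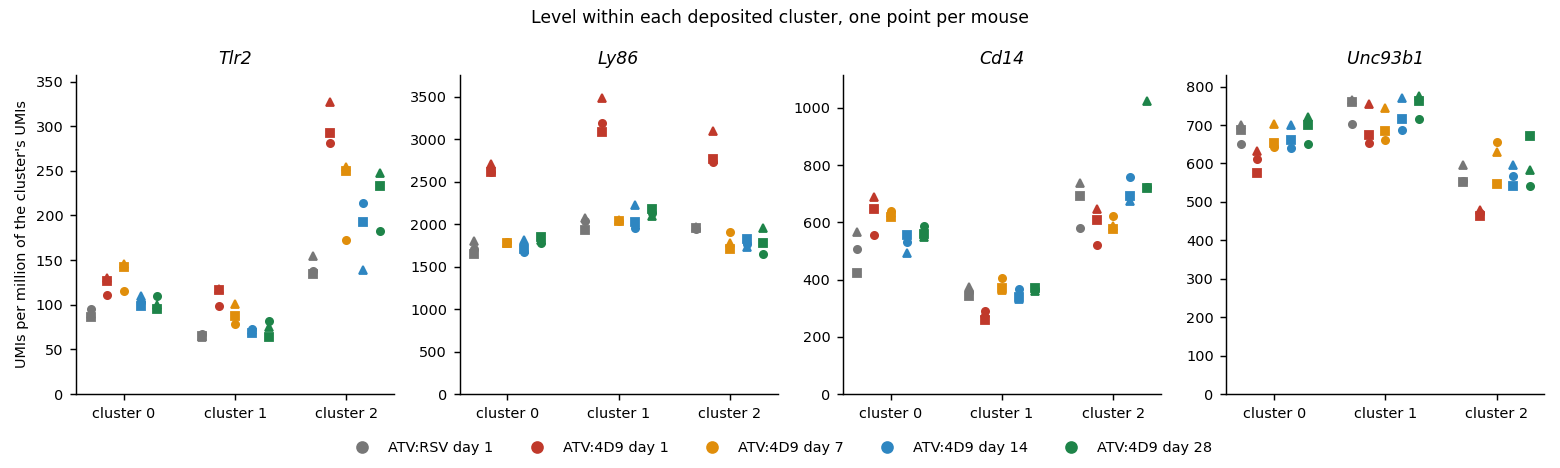
UMIs of Tlr2, Ly86, Cd14 and Unc93b1 per 1000000 UMIs of the cells of each deposited cluster, 1 point for each mouse, colored by group and with the batch as the symbol. Ly86 at day 1 of ATV:4D9 lies above the other groups in all 3 clusters, while Cd14 is lowest in cluster 1 in each group.

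By day 7 most members had returned near the control, with Tlr2 and Cd14 still higher and Tlr7 still lower. Of 10 members, 3 were called, where 3.98% of all genes tested were called, 2.99% higher and 0.996% lower. Groups did not overlap in 11.0% (higher) and 10.2% (lower) of all genes. Tlr2 was at 109, 131 and 137 CPM, above all controls (log2 fold change 0.66 ± 0.09, 1.58-fold, limma-voom adjusted p = 0.000311), and was called in all 27 alternatives. Cd14 was at 582, 552 and 548 CPM, again above all controls (0.38 ± 0.09, limma-voom adjusted p = 0.0188). Tlr7 was at 84.0, 73.8 and 72.2 CPM, below all controls (−0.22 ± 0.06, limma-voom adjusted p = 0.0379). The remaining 7 members had log2 differences from −0.15 to 0.16 with adjusted p of 0.233 or more, although Tlr3 was called lower with scaling by total UMIs (−0.19, limma-voom adjusted p = 0.0309). Among them, Ly86 lay above all controls (1857 to 1900 CPM) and Tlr13 below them (38.2 to 44.4 CPM).

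The Cd14 and Tlr7 calls at day 7 rested on few mice. The adjusted p of Cd14 rose to 0.104 without control replicate 2 and to 0.0751, 0.0518 and 0.0583 without day 7 replicates 1, 2 and 3. That of Tlr7 rose to between 0.0515 and 0.174 without any control, day 7 replicate 2 or 3, day 14 replicate 2 or day 28 replicate 2, to 0.113 with only the groups compared fitted, and scaling by the number of cells removed both calls. In batch 3 at day 7, the mouse with 141 neutrophil marker counts per 1000000 UMIs, Tlr2 was the highest of its group and Cd14 the lowest. Without that mouse the log2 fold change was 0.59 for Tlr2 (limma-voom adjusted p = 0.00356), and without cells bearing markers of another type it was 0.655 for Tlr2 and 0.38 for Cd14. The filter on cells marked 1 cell of that mouse by neutrophil markers, so it left the part of neutrophil transcripts untested.

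**Figure D4:**
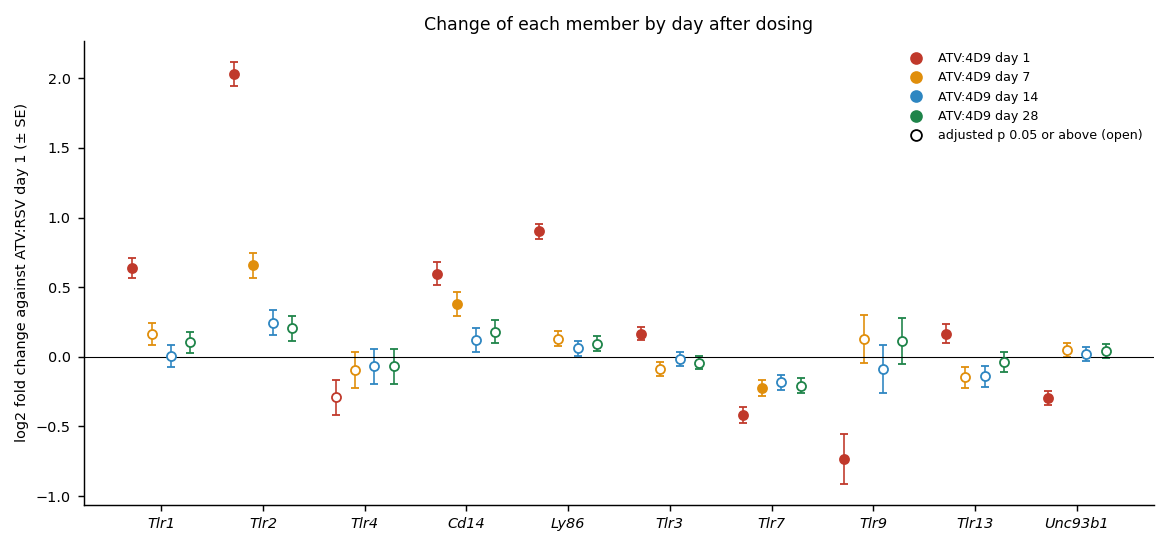
Log2 fold change of each member against ATV:RSV day 1, with its SE from limma-voom (n = 3 mice a group), at days 1, 7, 14 and 28 of ATV:4D9; filled points have an adjusted p under 0.05. Tlr2 falls from 2.03 at day 1 to 0.66, 0.25 and 0.21, and no point of days 14 and 28 is filled.

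At days 14 and 28 limma-voom called 0 of 10 members, as did edgeR and DESeq2, with 2 members at an unadjusted p under 0.05 on each day. Of all genes, 0.4% were called at day 14 and 0% at day 28. Tlr2 lay above the highest control (83.6 CPM) in each mouse, at 95.0, 89.8 and 97.9 CPM on day 14 and 98.4, 84.0 and 93.2 CPM on day 28. Its log2 difference was 0.25 ± 0.09 (limma-voom adjusted p = 0.642) and 0.21 ± 0.09 (limma-voom adjusted p near 1). Tlr7 lay below all controls, at 81.1, 80.4 and 74.3 CPM on day 14 and 76.4, 79.3 and 76.1 CPM on day 28. Its log2 difference was −0.18 ± 0.06 and −0.21 ± 0.06 (limma-voom adjusted p = 0.374 and 0.983). On day 28 Cd14 (498.6, 479.5 and 489.9 CPM, highest control 479.2) and Ly86 (1801, 1852 and 1839 CPM, highest control 1789) also lay above all controls. Among all genes, groups that did not overlap were found for 5.29% higher and 5.16% lower on day 14 and for 4.59% and 4.33% on day 28.

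Compared directly, day 7 differed from day 1 of ATV:4D9 in 9 of 10 members, where 66.9% of all genes were called. Tlr2 fell by 1.37 ± 0.09 on the log2 scale (limma-voom adjusted p = 1.37e-09) and Ly86 fell by 0.77 ± 0.05 (limma-voom adjusted p = 3.50e-09). Unc93b1 was higher at day 7 by 0.34 ± 0.05 (limma-voom adjusted p = 1.54e-05) and Tlr7 by 0.19 ± 0.06 (limma-voom adjusted p = 0.00648), and both signs turned with scaling by the number of cells (−0.12 and −0.27). From day 7 to day 14 Tlr2 fell by a further 0.41 ± 0.09 (limma-voom adjusted p = 0.0425), the single member among 0.912% of genes called. That call was lost in 14 of 27 alternatives, with an adjusted p of up to 0.498.

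Other parts of the pathway were taken from lists of 87 genes, of which 82 passed the filter. Tlr8, Tlr11, Tril, Ctsk and Il10 had 12 to 91 UMIs over all mice and were not tested. At day 1 of ATV:4D9, limma-voom called 34 of the 82 higher and 30 lower, where 34.7% of all genes tested were called higher and 34.6% lower. The counts of each list below under TMM scaling stand against these shares. Over all genes, scaling by the number of cells called 8945 and scaling by total UMIs 10648, against 9872 with TMM. All log2 fold changes below are against ATV:RSV.

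Among 7 other receptors and co-receptors, 3 rose and 3 fell at day 1, with 3 and 2 under scaling by the number of cells. Cd180, the partner of the Ly86 product, rose from 127 ± 5 to 309 ± 10 CPM (mean and SD, n = 3 mice; log2 fold change 1.28 ± 0.11, limma-voom adjusted p = 6.44e-08), in the same direction as Ly86. Cd36, a scavenger receptor that serves TLR2, rose by 2.86 ± 0.24 from a low level of 16 to 25 UMIs a mouse, and Tlr12 rose by 0.49 ± 0.08. Tlr6, the other partner of TLR2, fell by 0.64 ± 0.07, as far as Tlr1 rose, and Tlr5, the flagellin receptor, fell by 1.495 ± 0.201. Ly96, the MD-2 subunit that TLR4 needs to bind lipopolysaccharide, was named after its values were seen. It was at 56.0 ± 7.1 CPM in controls and 37.0 ± 4.7 CPM at day 1 and fell by 0.60 ± 0.11 (limma-voom adjusted p = 0.000103).

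Of 16 genes for receptor folding, trafficking and endosomal processing, 5 rose and 5 fell, where scaling by the number of cells called 10 higher and 2 lower and scaling by total UMIs 3 higher and 10 lower. Hsp90b1, the chaperone gp96 that folds most Toll-like receptors, rose by 1.09 ± 0.08, and Ctsb, a lysosomal protease, by 0.98 ± 0.05. Ctss, a protease that cuts endosomal receptors, fell by 0.62 ± 0.05, and Rnaset2b, a lysosomal ribonuclease, by 0.70 ± 0.10. Rnaset2b has a near copy, Rnaset2a, so its count is uncertain.

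Of 21 adaptors and kinases, 4 rose and 12 fell, a balance that turned to 7 higher and 1 lower with scaling by the number of cells and was 3 higher and 16 lower with scaling by total UMIs. Ikbke, a kinase of the interferon branch, rose by 2.98 ± 0.44 from 8 to 10 UMIs a mouse to 73 to 140. With so few control UMIs, Ikbke could pass the filter on low counts through the day 1 mice alone. This limits what its rise and its call show. Traf3 rose by 0.87 ± 0.07. Tab2 and Tab1, partners of the kinase TAK1, fell by 0.73 ± 0.07 and 0.68 ± 0.20, the latter with overlapping groups. The median over the list was −0.34, beside −0.05 for all genes.

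Of 11 transcription factors, 3 rose and 7 fell, or 5 and 1 with scaling by the number of cells and 3 and 8 with scaling by total UMIs. Irf7, the interferon regulatory factor downstream of TLR7 and TLR9 and itself induced by interferon, rose from 4.62 ± 2.68 to 76.7 ± 8.9 CPM (log2 fold change 4.15 ± 0.23, limma-voom adjusted p = 2.63e-10). Relb rose by 0.58 ± 0.08, while Jun and Fos fell by 0.88 ± 0.06 and 0.53 ± 0.08. Of 12 negative regulators, 5 rose and 3 fell, or 9 and 0 with scaling by the number of cells and 2 and 5 with scaling by total UMIs. Sigirr, an inhibitory receptor of the same family, rose by 1.18 ± 0.24 and Trim30a by 1.10 ± 0.08, and the phosphatase gene Dusp1 fell by 0.67 ± 0.18 and Tollip by 0.44 ± 0.08.

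Of the lists, the target genes had the largest median change, but the lists were chosen with earlier results of these data known. Of 15 tested, 14 rose at day 1 and none fell, also with scaling by the number of cells, while scaling by total UMIs called 12 higher and 1 lower. Il6, at −0.28, was not called. The median log2 fold change of the list was 2.13. Ifnb1, the interferon gene, went from 1 to 17 UMIs a mouse in controls to 290 to 453 at day 1, and Il12b, a cytokine subunit, from 4 to 33 to 966 to 1389. Genes this sparse in controls had little room to be called lower. They could also pass the filter on low counts through the day 1 mice alone, where they are high. Both points limit what the count of 14 and the median of the list show. At the low end Nfkbiz rose by 0.50 ± 0.14 and Cd86, a co-stimulator, by 0.18 ± 0.04. With cells of clusters 0 and 1 only, 4 of the 15 were called higher, 0 of the adaptors and kinases were called, and Cd180 was the other receptor still called. Over all genes, that fit on selected cells called 1230, against 9872 in the main fit.

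**Figure D5:**
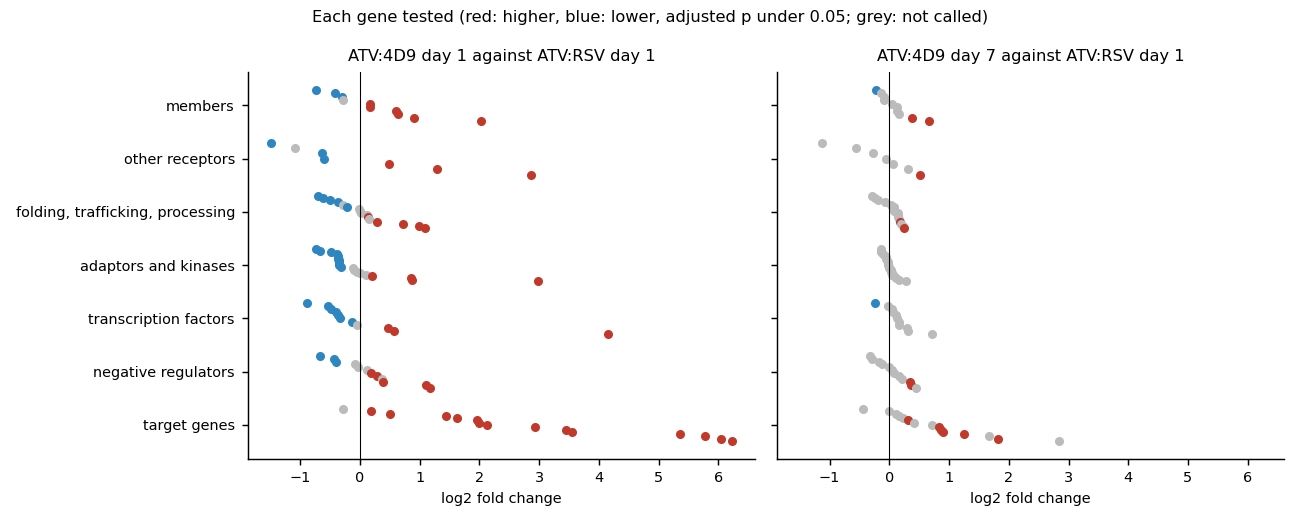
Log2 fold change of every tested gene of the members and of the 6 pathway lists at days 1 and 7 of ATV:4D9 against ATV:RSV, under TMM scaling. Red and blue points have an adjusted p under 0.05; the target genes reach 6.23 at day 1, while the adaptors and kinases fall on both sides of 0, with 12 lower, a balance that turned to 7 higher and 1 lower with scaling by the number of cells.

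At day 7, 11 of the 82 list genes were called higher and 1 lower, where 2.99% of all genes tested were called higher and 0.996% lower. These included Tlr12 (0.52 ± 0.08), Ctsb (0.24 ± 0.05), Pld4 (0.18 ± 0.04), the inhibitors Tnip1 (0.37 ± 0.07) and Tnfaip3 (0.34 ± 0.08), and the target genes Il1b (1.82 ± 0.29), Cxcl10 (1.24 ± 0.22) and Cd86 (0.31 ± 0.04), each with an adjusted p of limma-voom between 5.37e-05 and 0.0323. Jun fell by 0.25 ± 0.06 (limma-voom adjusted p = 0.0408). Of the 21 adaptors and kinases, limma-voom called 0 at day 7, with 3 at an unadjusted p under 0.05 and 1 called by each of edgeR and DESeq2. With the batch as a block, 2 adaptors and kinases were called higher, and over all lists the counts at day 7 were 18 higher and 3 lower. They were 17 and 1 with cells of clusters 0 and 1 only, 9 and 4 with scaling by total UMIs, and 6 and 1 with scaling by the number of cells. The last 6 were target genes, 5 of them also called higher under TMM scaling. Over all genes, 568 were called in the main fit and 1014 with the block. Clusters 0 and 1 gave 758, scaling by total UMIs 1199 and scaling by the number of cells 308. At days 14 and 28 limma-voom called 0 of 82, with 9 and 7 at an unadjusted p under 0.05, edgeR called 0 on both days and DESeq2 called 1 at day 14 and 0 at day 28.

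Over the 15 mice, the gene whose CPM followed Tlr2 most closely among 10978 genes was Tpm4, a tropomyosin gene (Pearson r = 0.995), and over the 12 mice other than day 1 ATV:4D9 the r of the pair was 0.971. For Ly86 it was Gfer (0.992, and 0.764 without the day 1 mice), for Unc93b1 Ubald1 (0.980 and 0.914), and for Tlr9 Tmem38b (0.976 and 0.918). The closest genes of 5 others were Fdxr for Tlr3, Scoc for Tlr7, Cndp2 for Tlr13, Amacr for Tlr4 and H2afj for Cd14, with r from 0.925 to 0.954. These are descriptions of samples that share batches and fall into a day 1 group and the rest, and no test was made.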

How the data were processed

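Libraries of 15 mice were made with a 3′ UMI kit. The authors mapped reads to mm10 (Cell Ranger 4.0.0 in the submitters' processing notes, other versions in the study's methods) and filtered and clustered cells in Seurat. The deposited matrix held raw UMI counts per gene and cell, and the deposited cell table the percent of mitochondrial UMIs, the cluster and the mouse of each cell, whose batches 1, 3 and 4 are 1, 2 and 3 in the labels. Groups came from the labels, which mention a further control animal that was not analysed here. The members and gene lists were chosen with earlier results of these data known.

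Counts were summed per mouse, filtered with filterByExpr (minimum count 10, minimum total 15), scaled by TMM and fitted by limma-voom as group means over the 15 mice, for 6 contrasts, with a call at an adjusted p under 0.05 (Benjamini-Hochberg over all genes tested). Versions were R 4.3.3, edgeR 4.0.16 and limma 3.58.1, with DESeq2 1.42.0 as an alternative. The fits were tested on simulated data. CPM are TMM-scaled, and values per 1000000 UMIs in clusters and marker lists are not. Cells were thinned to 3385 UMIs, the 10th percentile, which left out 3.93% to 17.8% of the cells of a mouse. Doublets were not called, and instead cells with 3 or more markers of another type, or the 5% with most UMIs, were left out as alternatives. Marker lists for border-associated macrophages (11.5 to 26.0 per 1000000 UMIs over the 15 mice), dendritic cells (1.77 to 2.86), B cells (205 to 278), T or NK cells (0.05 to 0.64), endothelial cells (8.82 to 25.5), astrocytes (5.93 to 12.8) and oligodendrocytes (28.3 to 61.3) were also summed.

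The batch pairs the mice, since the labels state that each batch held all conditions. Deviations of mice from their group had a mean r of 0.054 within a batch (30 pairs) and −0.027 between batches (60 pairs). No pair of libraries in a group agreed within sampling noise (chi-square per degree of freedom 10.6 to 28.7).

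Text names all members, from each list up to 2 called genes with the highest and 2 with the lowest log2 fold change at day 1, up to 3 called at each later day by adjusted p, and the gene most alike to each member over the mice (at least 10 UMIs in every mouse), of which that of Tlr1 is not reported here. Promoters are from RefSeq (GRCm38.p6) and gene starts and overlaps from GENCODE M21, whose symbols matched 31506 of 32372 genes. P-values measure the spread between these 3 mice a group.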

Additional observations from a re-analysis of the deposited data

Results flagged for a closer look

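The change against ATV:RSV differed between day 1 and day 7 of ATV:4D9 for 9 of 10 members, where 66.9% of all genes tested differed (limma-voom, Benjamini-Hochberg adjusted p over 14260 genes, 3 mice a group). The log2 difference of day 7 from day 1 was −1.37 for Tlr2, whose change went from 2.03 to 0.66, and −0.77 for Ly86, from 0.90 to 0.13. It was −0.47 for Tlr1, from 0.64 to 0.16, and −0.22 for Cd14, from 0.60 to 0.38. The Cd14 groups overlapped, batch 1 showed 0.03 in place of a fall, and leaving out day 1 replicate 2 or 3 or day 7 replicate 2 or 3 ended the call (adjusted p between 0.078 and 0.157), as did scaling by total UMIs (0.414) and leaving out the 5% of cells with most UMIs (0.0753). It was −0.26 for Tlr3, from 0.17 to −0.09, and −0.31 for Tlr13, from 0.17 to −0.15, and both calls were lost with scaling by total UMIs (adjusted p = 0.0504 and 0.0735). It was 0.86 for Tlr9, from −0.73 to 0.13, 0.34 for Unc93b1, from −0.30 to 0.05, and 0.19 for Tlr7, from −0.42 to −0.22. Leaving out day 7 replicate 1 ended the Tlr7 call (adjusted p = 0.0525). With scaling by the number of cells the Tlr9 call was lost (0.38, adjusted p = 0.109) and the Unc93b1 and Tlr7 differences turned sign (−0.12 and −0.27). With cells of clusters 0 and 1 only, the calls of Tlr1, Tlr2, Tlr3, Tlr7 and Tlr9 were lost (adjusted p from 0.231 to 0.982), and Cd14 turned to a called rise (0.34, adjusted p = 0.0223).

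From day 7 to day 14 the change differed for Tlr2, at −0.41, from 0.66 to 0.25 (limma-voom adjusted p = 0.0425). The adjusted p was 0.262 without day 7 replicate 3 and 0.195 without day 7 replicate 2, and it was 0.14, 0.2 and 0.0985 without day 14 replicates 1, 2 and 3. Without control replicate 2 or 3, day 1 replicate 2 or day 28 replicate 3 it lay between 0.0564 and 0.0689.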

How the results depend on the processing

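Over 27 alternatives and 10 members in 6 comparisons, 1538 of 1620 values stayed on their side of the threshold, of which 35 changed sign with no call in either fit, 61 were no longer called, 13 became called and 8 turned sign. The cause of these changes was not tested. Clusters 0 and 1 hold few day 1 cells, and these are a selection by clusters drawn from the same counts. With those clusters only, 2 members were called at day 1 and 4 from day 1 to day 7, and the day 1 to day 7 differences became 0.0093 for Tlr1, 0.18 for Tlr2 and 0.34 for Cd14, with 1230 genes called at day 1, 88 at day 14 and 1399 from day 1 to day 7. Scaling by total UMIs gave −0.075 for Tlr3 and −0.073 for Tlr13 at day 1, and the median of all genes −0.29. Scaling by cells gave 0.064 for Unc93b1 at day 1, and −0.12 for Unc93b1 and −0.27 for Tlr7 from day 1 to day 7, with 1 member called at day 7. From day 7 to day 14, 0 members were called under scaling by total UMIs or by cells, without a filter on low counts, with only the groups compared or without the 5% of cells with most UMIs.

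Genes called at day 7 (568) became 871 with DESeq2, 1199 with total UMIs, 308 with cells and 1014 with the replicate block. At day 14 (57) they became 132, 19, 0 and 122, and 0 with only the groups compared. At day 28 (0) DESeq2 called 14 and the block 2. From day 7 to day 14 (130) they became 241, 86 and 11 with DESeq2, total UMIs and cells. The block on batch changed no call of a member other than Tlr4, called at day 1 (adjusted p = 0.0057) and from day 1 to day 7 (adjusted p = 0.0455). Leaving out each mouse gave 8 to 10 members called at day 1, 1 to 3 at day 7, 0 at days 14 and 28, 8 to 9 from day 1 to day 7 and 0 to 1 from day 7 to day 14, and 9287 to 9939, 331 to 611, 0 to 59, 0, 8910 to 9618 and 31 to 149 genes. Depth limits Tlr9 most, at 63 to 152 UMIs a mouse.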
